A study of Populus euphratica with 12 samples.

Results

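The miR167 and miR393 families were represented by 7 of the 257 miRNAs listed for each library, chosen by name as all ptc-miR167 and ptc-miR393 entries. The 5 miR167 entries were ptc-miR167a, ptc-miR167e, ptc-miR167f-3p, ptc-miR167f-5p and ptc-miR167h-5p, while ptc-miR393a-3p and ptc-miR393a-5p were the miR393 entries. The suffixes 5p and 3p name the arm of the hairpin precursor from which a mature sequence is cut, and ptc stands for Populus trichocarpa, the poplar whose miRBase names were used. The samples were small RNA libraries of Populus euphratica, a desert poplar whose leaves change shape as the tree matures. Linear (Li) leaves came from trees aged 0 to 3 years, lanceolate (La) from 4 to 6, ovate (Ov) from 8 to 12 and broad-ovate (Bo) from over 20 years. Each type had 3 biological replicates, and all were second juvenile leaves of growing buds at one site. Leaf shape and tree age therefore cannot be told apart, and the sources used here do not say how many trees went into a replicate.

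Auxin reaches its target genes through a receptor step and a transcription factor step, and these miRNA families act on one step each. In Arabidopsis, miR167 cuts the mRNAs of ARF6 and ARF8, auxin response factors that activate auxin-induced genes in growing organs. In the same plant miR393 cuts the mRNAs of TIR1 and related AFB F-box proteins, the auxin receptors that mark the Aux/IAA repressors for breakdown. The 5p arm gives the active guide strand in both families, and the 3p arm is usually its less abundant partner. Members of the miR167 family are known to differ little in their mature sequence. The deposited tables list the members by name only, with an empty position field for all 7, so no precursor location is given here.

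All levels are in RPM, which relates the reads of a miRNA to all reads on the 257 listed miRNAs of its library, without a term for length. The libraries held from 199583 (Bo1) to 632114 (Ov1) such reads, so that 1 read was worth between 1.58 and 5.01 RPM. The tables used here hold miRNAs only, and leaf mRNAs were not analysed here, so the leaf identity was not checked against mRNA markers. The age labels were checked with ptc-miR156a, the miRNA of the juvenile phase, which was at 3822 ± 1188 RPM in Li and 162 ± 41.0 RPM in Bo (SD, n = 3 each).

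The miR167 family as a whole was abundant in all 4 leaf types. The 5 miR167 entries together took 0.97% of the reads on average. Their sum averaged 10335 ± 2471 RPM over the Li libraries and 9862 ± 1756 RPM over the La libraries. The Ov libraries averaged 10329 ± 1407 RPM and the Bo libraries 8340 ± 1329 RPM (SD, n = 3 per leaf type), so that the means differed by less than the SD of Li. The highest library was Li1 at 13043 RPM and the lowest Bo1 at 7220 RPM, a range of 1.81-fold over all 12. In contrast, the 2 miR393 entries together reached only 62.1 ± 5.73 RPM in Li leaves and 59.1 ± 33.1 RPM in Bo leaves, with La (42.6 ± 16.6 RPM) and Ov (42.7 ± 7.95 RPM) below both (SD, n = 3 per leaf type). These sums are descriptions and were not tested.

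**Figure D1:**
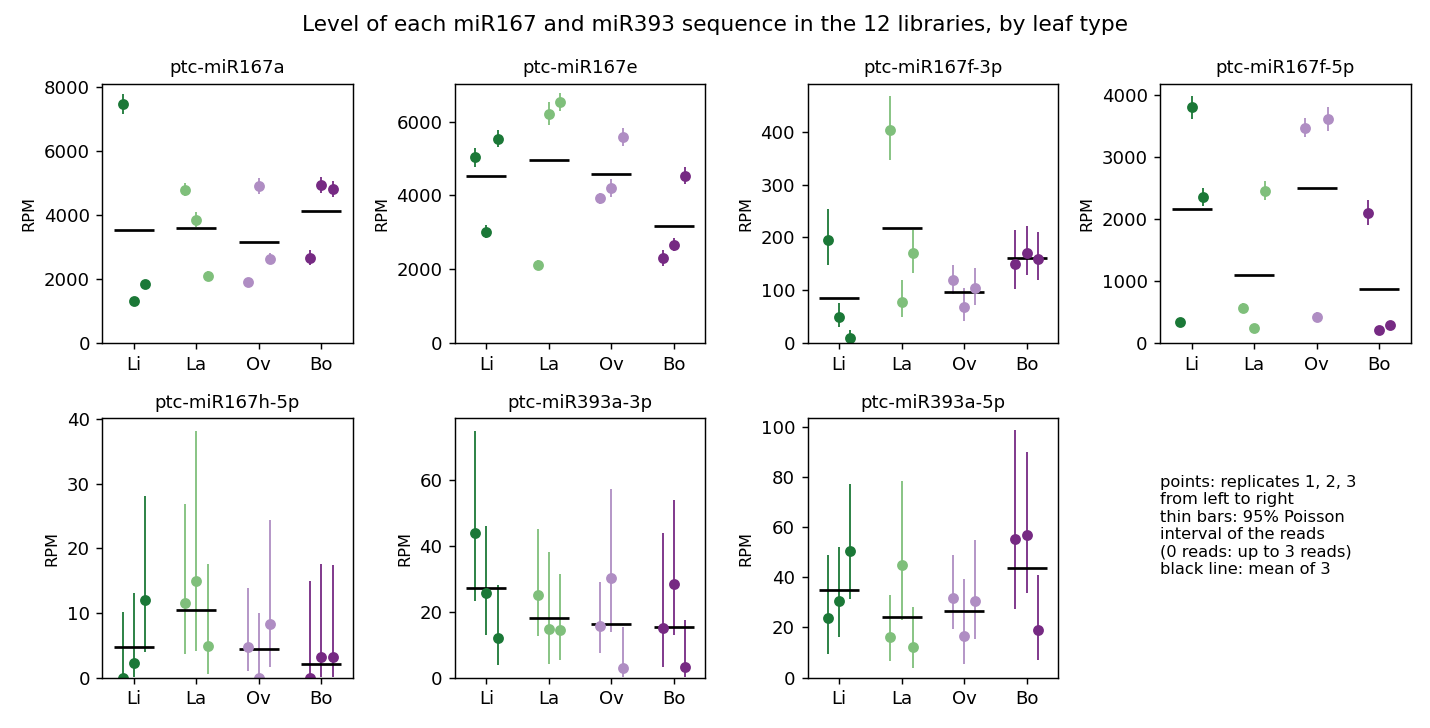
Level in RPM (vertical axes, linear from 0) of each of the 7 miR167 and miR393 entries in the 12 libraries, by leaf type (horizontal axes, 3 libraries each). Points are libraries, thin bars are 95% Poisson intervals of the reads (counting error only) (for 0 reads, up to the worth of 3 reads) and black lines are means of 3, and ptc-miR167f-5p falls into a set of 6 low libraries (209 to 572 RPM) and a set of 6 high ones (2104 to 3809 RPM) that are mixed over the leaf types.

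The most abundant member was ptc-miR167e, the 24th of the 257 miRNAs by mean level. It was at 5038, 3019 and 5538 RPM in Li1, Li2 and Li3, and at 2115, 6220 and 6543 RPM in La1, La2 and La3. It was at 3923, 4197 and 5590 RPM in Ov1, Ov2 and Ov3, and at 2300, 2663 and 4540 RPM in Bo1, Bo2 and Bo3. The Bo mean was the lowest of the leaf types, but the values of Bo overlapped those of each other type. For Bo/Li the log2 fold change was -0.53 (95% interval -1.48 to 0.42, adjusted p = 0.51 in limma after Benjamini-Hochberg correction). La1 stood apart from La2 and La3, with less than any library of the other 3 types. Its 95% Poisson interval (1981 to 2256 RPM) overlapped that of Bo1 (2094 to 2520 RPM), however.

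The second member, ptc-miR167a, varied more between replicates than between leaf types. Its values were 7472, 1323 and 1841 RPM in Li1, Li2 and Li3. They were 4798, 3851 and 2107 RPM in the La libraries and 1919, 4903 and 2635 RPM in the Ov libraries, in the order of replicates 1, 2 and 3. In Bo1, Bo2 and Bo3 they were 2666, 4944 and 4820 RPM. The Li libraries alone covered the whole range of the study, from the lowest value (Li2) to the highest (Li1). The Bo/Li log2 fold change of 0.60 (95% interval -0.66 to 1.86, adjusted p = 0.61 in limma) was within the spread of replicates.

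The widest spread among the abundant members was that of ptc-miR167f-5p, the 5p strand of the f precursor. In Li1, Li2 and Li3 it was at 338, 3809 and 2357 RPM. In La1, La2 and La3 the values were 572, 235 and 2463 RPM. In Ov1, Ov2 and Ov3 they were 3479, 423 and 3614 RPM, and in Bo1, Bo2 and Bo3 they were 2104, 209 and 286 RPM. Every leaf type thus held both low and high libraries, and no library lay between 572 and 2104 RPM, a step of 3.68-fold. These differences were larger than counting error, since the 66 reads in Bo2 gave a 95% Poisson interval of 161 to 265 RPM and the 420 reads in Bo1 one of 1908 to 2316 RPM. Its coefficient of variation over the 12 libraries was 88.3%, the 4th highest among 49 miRNAs that averaged 1000 RPM or more, for which the median was 37.9%. The Bo/Li log2 fold change was -1.53 (95% interval -4.02 to 0.96, adjusted p = 0.47 in limma), and it lay between -2.58 (without Li1) and -0.83 (without Li2) with single libraries left out.

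Levels of ptc-miR167f-5p and ptc-miR167a were opposite to each other across the libraries. The 6 libraries with the most ptc-miR167f-5p were Li2, Ov3, Ov1, La3, Li3 and Bo1, and all 6 of them were also the 6 with the least ptc-miR167a. The ratio of ptc-miR167f-5p to ptc-miR167a was lowest in Bo2, at 0.042 (66 against 1565 reads), and highest in Li2, at 2.88 (1629 against 566 reads). Within each leaf type the ratio spanned a wide range, from 0.045 to 2.88 among Li, from 0.061 to 1.17 among La, from 0.086 to 1.81 among Ov and from 0.042 to 0.79 among Bo libraries. Depth moved with this order in most libraries. Among the 6 with high ptc-miR167f-5p, Li2, Li3, La3, Ov1 and Ov3 held from 358301 to 632114 reads, and Bo1 held 199583. Among the other 6, Li1, La2, Ov2, Bo2 and Bo3 held from 268012 to 318495 reads, and La1 held 435399. The part of depth in the split was not tested. The sum of the pair was far steadier than either part. It lay between 4086 RPM (La2) and 7810 RPM (Li1), with a coefficient of variation of 18.8% against 50.6% for ptc-miR167a alone. In Bo the sums were 4770, 5153 and 5105 RPM, although ptc-miR167f-5p alone was at 2104 RPM in Bo1 and 209 RPM in Bo2.

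**Figure D2:**
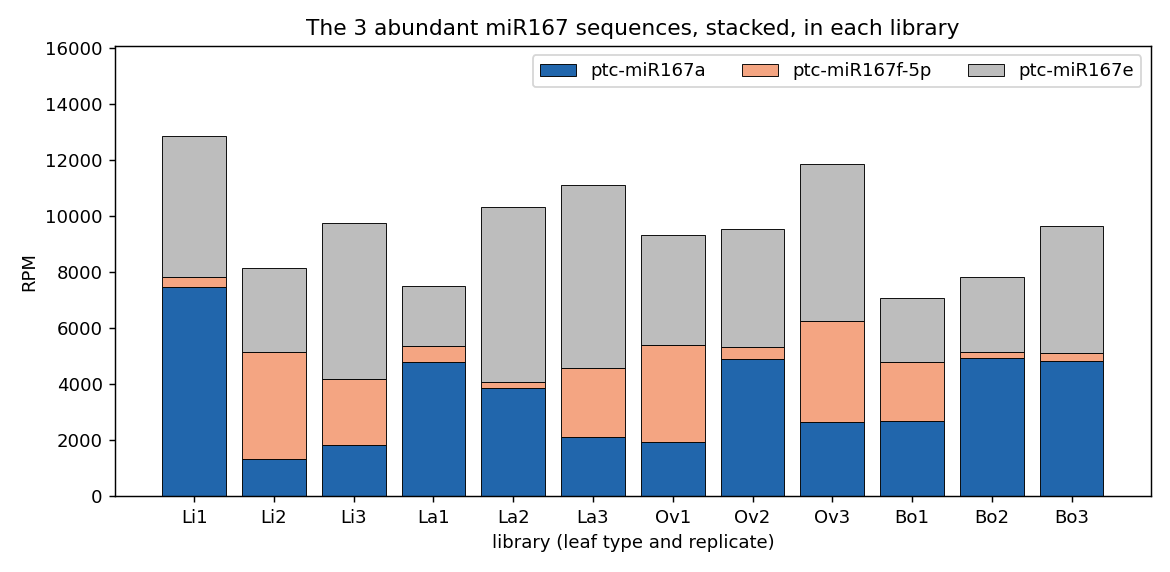
Levels in RPM (vertical axis, from 0) of ptc-miR167a, ptc-miR167f-5p and ptc-miR167e stacked in each of the 12 libraries (horizontal axis). Within every leaf type the libraries with a high orange part have a smaller blue part than those with a low one, and their sum lies between 4086 and 7810 RPM.

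This offset was compared with other same-family pairs of annotated miRNAs, a comparison chosen after the values were seen. For 64 pairs from 20 families, both members with a mean of at least 100 RPM, the variance of the sum over the 12 libraries was divided by the sum of both variances. A value under 1 means that 1 member tended to be low where the other was high. A value near 1 means little shared variation only where both members vary by a like amount. Where 1 member varies far more than the other, the value is near 1 in any case. For ptc-miR167a and ptc-miR167f-5p the value was 0.18, the lowest of the 64. The next lowest was 0.64, for ptc-miR482a.2 and ptc-miR482d-3p, and the median was 1.02. The other 5 miR167 pairs lay between 0.91 and 1.07, those with ptc-miR167e among them. The pairs with ptc-miR167f-3p were bound to lie near 1. Its SD over the 12 libraries was 101 RPM, against 1825 for ptc-miR167a, 1530 for ptc-miR167e and 1464 for ptc-miR167f-5p. The rank of a pair among the 64 thus also depends on how alike its SDs are. The pairs share libraries and members, and the values are descriptions without a test. How reads that fit both ptc-miR167a and ptc-miR167f-5p were assigned is not stated in the sources, and its part in the offset was not tested.

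**Figure D3:**
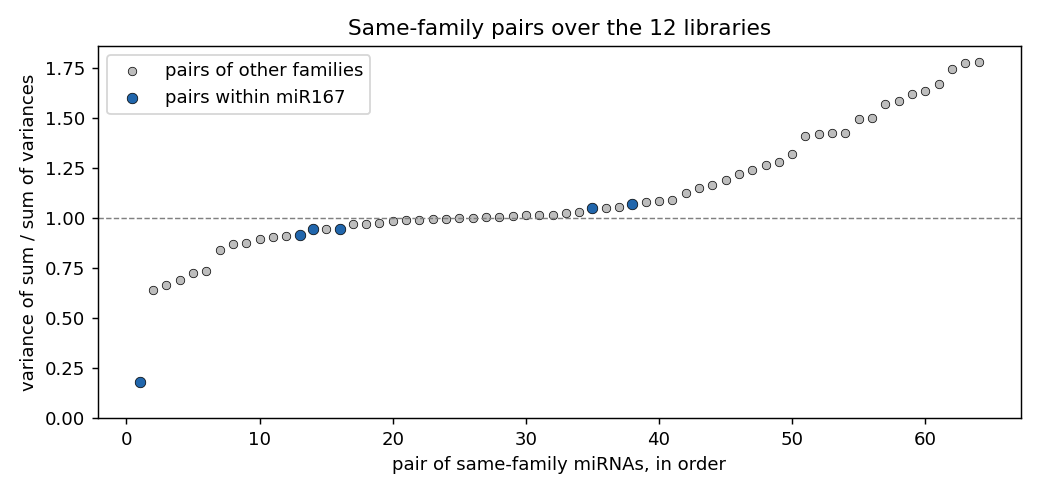
Variance of the summed level over the 12 libraries divided by the sum of the 2 members' variances (vertical axis, from 0, no unit), for 64 same-family pairs of annotated miRNAs in rising order (horizontal axis). The pair ptc-miR167a and ptc-miR167f-5p is the lowest point at 0.18, and the other 5 miR167 pairs lie near the dashed line at 1.

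The partner strand, ptc-miR167f-3p, did not follow the 5p strand of the same precursor name. Its values were 196, 49.1 and 9.64 RPM in the Li libraries and 404, 78.4 and 170 RPM in the La libraries. They were 119, 67.2 and 103 RPM in the Ov libraries and 150, 171 and 160 RPM in the Bo libraries. The Bo values had a coefficient of variation of 6.33%, while those of Li ranged 20.3-fold, with only 4 reads in Li3. Bo1, Bo2 and Bo3 rested on 30, 54 and 51 reads. Their 95% Poisson intervals, 101 to 215, 128 to 223 and 119 to 211 RPM, were far wider than that spread. All 3 Bo values were above all 3 Ov values, but the interval of Ov1 (93.3 to 149 RPM) overlapped those of Bo. The Li and La values overlapped those of Bo. The log2 fold change was 1.77 for Bo/Li (standard error 0.87, 95% interval -0.11 to 3.65, adjusted p = 0.26 in limma) and 1.90 for La/Li (standard error 0.87, adjusted p = 0.32 in limma). The La/Li difference passed the unadjusted threshold of 0.05 in limma, which no other member did in any pair. Both values depended on single Li libraries. Without Li1 the log2 fold change was 2.80 for Bo/Li (adjusted p = 0.045 in limma) and 2.93 for La/Li (adjusted p = 0.057 in limma), and without Li3 it was 0.70 for Bo/Li and 0.83 for La/Li.

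The ratio of the 5p to the 3p strand of miR167f spanned from 1.22 in Bo2 to 244.5 in Li3. In Li1, Li2 and Li3 it was 1.72, 77.6 and 244.5, and in La1, La2 and La3 it was 1.41, 3.00 and 14.5. Ov1, Ov2 and Ov3 had ratios of 29.3, 6.30 and 35, and Bo1, Bo2 and Bo3 of 14.0, 1.22 and 1.78. The 5p strand was the more abundant one in all 12 libraries, as is usual for this family, but in La1, Bo2, Li1 and Bo3 by less than 2-fold. These 4 libraries were among the 6 with low ptc-miR167f-5p. That level is the numerator of the ratio, so low ratios and low ptc-miR167f-5p are not independent. The highest ratio was that of the library with 4 reads of the 3p strand.

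The last miR167 entry, ptc-miR167h-5p, was close to the limit of detection. It had 25 reads in the 12 libraries together and at most 5 in any of them. No read was seen in Li1, Ov2 and Bo1, where a count of 0 allowed up to 10.1, 10.1 and 15.0 RPM (3 reads, counting error only). All 3 La libraries (5, 4 and 2 reads) were above all 3 Bo libraries (0, 1 and 1 reads) in RPM. Over the pooled reads, 11 in La and 2 in Bo, La exceeded Bo by a ratio of 4.11 (exact 95% interval from 0.90 to 38.2 for counting error), so no difference was detectable at this depth. The limma value for Bo/La was likewise past no threshold (adjusted p = 0.43).

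The miR393 strands, from the family that acts on the auxin receptors, were rare in every leaf type, with 0.0052% of the reads on average. The 5p strand, ptc-miR393a-5p, was at 23.6, 30.4 and 50.6 RPM in Li1, Li2 and Li3 and at 16.1, 44.8 and 12.1 RPM in La1, La2 and La3. It was at 31.6, 16.8 and 30.7 RPM in Ov1, Ov2 and Ov3 and at 55.1, 56.9 and 18.8 RPM in Bo1, Bo2 and Bo3. Bo1 and Bo2 were the highest of the 12 libraries, whereas Bo3 was below every Li library. These values rested on 5 to 21 reads per library. The 95% Poisson intervals were 27.5 to 98.6 RPM for Bo1, 33.7 to 89.9 for Bo2 and 6.91 to 41.0 for Bo3. They overlapped one another and those of every Li library, so the reads do not settle the order of these libraries. The Bo/Li log2 fold change was 0.23 (95% interval -1.26 to 1.72, adjusted p = 0.87 in limma).

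The 3p strand, ptc-miR393a-3p, rested on 1 to 13 reads per library. Li1, Li2 and Li3 had 43.9, 25.7 and 12.0 RPM, and La1, La2 and La3 had 25.3, 14.9 and 14.5 RPM. Ov1, Ov2 and Ov3 had 15.8, 30.2 and 2.79 RPM, and Bo1, Bo2 and Bo3 had 15.0, 28.4 and 3.14 RPM. The leaf types were ordered by their means from Li (27.2 ± 16.0 RPM) and La (18.2 ± 6.08 RPM) to Ov (16.3 ± 13.7 RPM) and Bo (15.5 ± 12.7 RPM; SD, n = 3 per leaf type). All 4 groups overlapped, and the Bo/Li log2 fold change was -1.0 (95% interval -2.99 to 0.98, adjusted p = 0.57 in limma). The 3p strand of miR393a had more reads than the 5p strand in 4 of the 12 libraries (Li1, La1, La3 and Ov2). The 5p and 3p reads there were 7 and 13, 7 and 11, 5 and 6, and 5 and 9. The 95% Poisson intervals of both strands overlapped in each, so these counts show no reversal of the strands. The ratio of 5p to 3p averaged 1.97 ± 1.95 for Li, 1.49 ± 1.31 for La, 4.52 ± 5.66 for Ov and 3.89 ± 2.01 for Bo leaves (SD, n = 3 per leaf type). The Ov and Bo means were raised by single libraries, with 11 reads against 1 in Ov3 and 6 against 1 in Bo3. The ratio of the summed values was 1.28 for Li, 1.33 for La, 1.62 for Ov and 2.81 for Bo.

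The 6 pairs of leaf types were then compared for all members at once. Each of the 7 members had a mean of at least 1 RPM and entered the limma fit with all 216 tested miRNAs and all 12 libraries. In none of the 6 pairs did a member pass the adjusted threshold of 0.05, and the smallest adjusted p of any member was 0.26, for ptc-miR167f-3p in Bo/Li. The 42 log2 fold changes lay between -2.03 (ptc-miR167h-5p, Bo/La) and 1.90 (ptc-miR167f-3p, La/Li). Their median size was 0.56, against 0.67 for all tested miRNAs.

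Li was compared with the 3 later leaf types. For Bo/Li, where 12.5% of the tested miRNAs passed the adjusted and 22.2% the unadjusted threshold, 0 of the 7 members passed either. The Li and Bo values of 31.5% of the tested miRNAs did not overlap, and of 0 members. For Ov/Li the same shares were 4.17%, 23.1% and 26.9% of the tested miRNAs, and again 0 members by each rule. For La/Li they were 1.85%, 14.8% and 19.0%, with 0 members past the adjusted threshold, 1 (ptc-miR167f-3p) past the unadjusted one and 0 without overlap. Median log2 fold changes of the members were -0.45 for Bo/Li, 0.10 for Ov/Li and 0.01 for La/Li, beside 0.09, -0.003 and 0.08 for all tested miRNAs.

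Among the later leaf types the result was similar. For Ov/La, limma called 0% of the tested miRNAs after adjustment and 1.85% before it, and 7.41% had values without overlap, with 0 members by each rule. For Bo/La the shares were 3.70%, 13.0% and 18.5%, and 1 member, ptc-miR167h-5p, had values without overlap, at the few reads given above. For Bo/Ov they were 2.78%, 14.4% and 19.9%, and 1 member, ptc-miR167f-3p, had values without overlap. No member passed either threshold in Bo/La or Bo/Ov. The intervals of single members were wide, reaching from -4.40 to 3.95 over the 6 pairs, so that these values do not show equal levels in the leaf types.

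**Figure D4:**
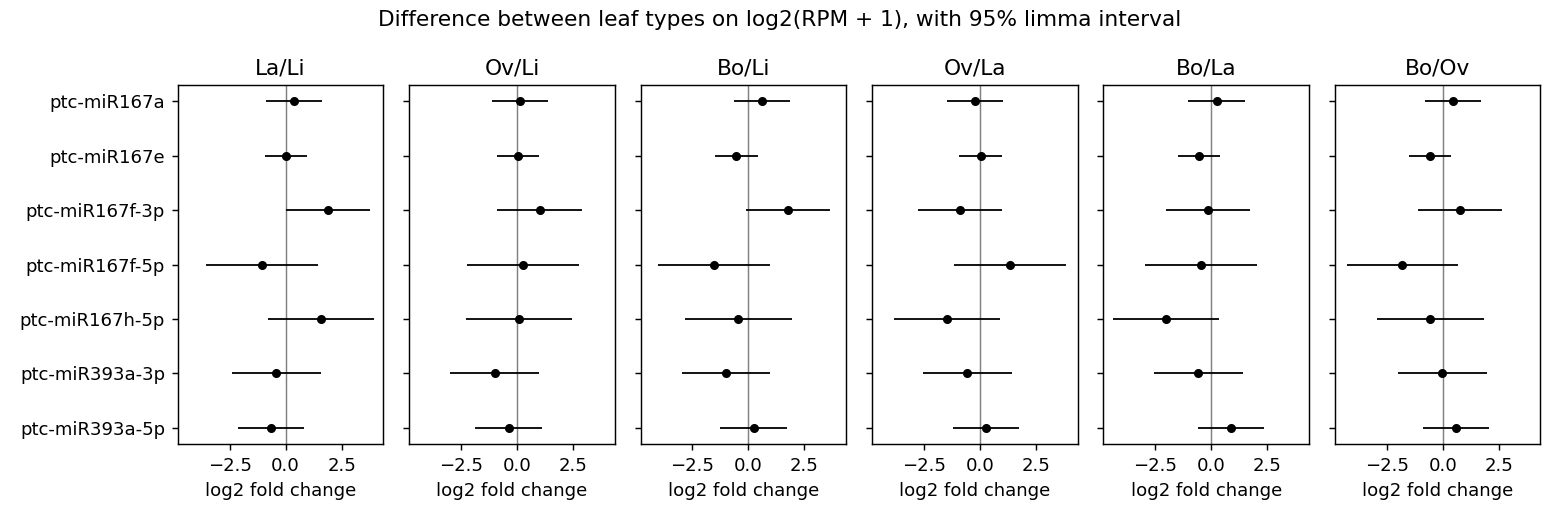
Log2 fold change on the scale of log2(RPM + 1) (horizontal axes) of the 7 members (rows) in the 6 pairs of leaf types (panels), with the 95% interval of the limma fit over 12 libraries. Only the interval of ptc-miR167f-3p for La/Li stays on one side of 0, and its adjusted p is 0.32.

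The families miR160, miR164 and miR390, which also belong to auxin signalling, were set beside the members. In Arabidopsis miR160 acts on ARF10, ARF16 and ARF17, miR390 acts through the TAS3 RNA on ARF2, ARF3 and ARF4, and miR164 acts on NAC1. Of their 10 entries, 3 passed the adjusted threshold for Bo/Li, all of miR160 and all higher in Bo, against 12.5% of all tested miRNAs, and 0 of 10 passed it in each of the other 5 pairs in limma. Unadjusted, 2 of 10 passed for La/Li (14.8% of all tested) and for Bo/La (13.0%), and 3 of 10 for Ov/Li (23.1%), Bo/Li (22.2%) and Bo/Ov (14.4%). For Ov/La it was 0 of 10 (1.85%). Some of these counts lie above the shares over all tested miRNAs, as 3 of 10 beside 12.5% or 14.4%, and others are near or below them. With only 10 entries these differences rest on few calls and were not tested. The Bo/Li calls are also not all separate, as ptc-miR160e-5p and ptc-miR160e-3p are strands of the same precursor name. The abundant ptc-miR160a was at 1303 ± 133 RPM in Li and 2595 ± 228 RPM in Bo (SD, n = 3 each), a log2 fold change of 0.99 (adjusted p = 0.049 in limma), where ptc-miR167a had 0.60. For ptc-miR160e-5p it was 1.58 (adjusted p = 0.033) and for ptc-miR160e-3p 1.55 (adjusted p = 0.034 in limma). These calls were not stable: without Li1, Li2, Li3, Bo2 or Bo3 the count was 0 of 10, and 0 also with median-ratio scaling. In La/Li, 4 of the 10 had values without overlap, against 19.0% of all tested miRNAs, with ptc-miR160a higher and ptc-miR160b-3p, ptc-miR390a and ptc-miR390d-3p lower in La, and none passed the adjusted threshold. The miR390 entries had a log2 fold change of -0.91 (adjusted p = 0.19) for ptc-miR390a and -1.01 (adjusted p = 0.29 in limma) for ptc-miR390d-3p. Whether the miR160 changes differ from those of miR167 was not tested.

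The miRNAs with the pattern most like each member were sought by the Pearson correlation of log2(RPM + 1) over the 12 libraries, as a description. Each r was picked as among the 3 highest over all other tested miRNAs, so its size alone is no evidence of a link. For ptc-miR167a they were NW_011499921.1_13419, a predicted miRNA with 7 to 29 reads per library (r = 0.69), ptc-miR397a (r = 0.59) and ptc-miR478p (r = 0.58). Of these, ptc-miR397a had only 0 to 2 and ptc-miR478p only 0 to 8 reads per library. For ptc-miR167e they were ptc-miR399e (r = 0.66), the star sequence NW_011500147.1_25812* (r = 0.62) and ptc-miR7840 (r = 0.59). Here ptc-miR399e had 0 to 28 and ptc-miR7840 had 0 to 76 reads per library. For ptc-miR167f-5p they were ptc-miR1446a (r = 0.71), ptc-miR169ac (r = 0.66) and NW_011499895.1_11020* (r = 0.66). None of these 3 had more than 16 reads in a library, so the likeness rests on very few reads. For ptc-miR167f-3p they were ptc-miR6424 (r = 0.68, with 0 to 56 reads per library), ptc-miR6471 (r = 0.65) and ptc-miR396f (r = 0.61). For ptc-miR393a-3p they were ptc-miR172b-5p (r = 0.73), NW_011499850.1_2968* (r = 0.70) and NW_011499895.1_11018 (r = 0.68), and for ptc-miR393a-5p they were ptc-miR6474 (r = 0.79), ptc-miR171g-5p (r = 0.74) and NW_011499850.1_2972 (r = 0.69). The entry ptc-miR171g-5p had only 0 to 4 reads per library. No member was among the 3 nearest of another member.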

How the data were processed

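Small RNA libraries of the 12 samples were sequenced by the authors, who aligned reads to miRBase v.21 with 0 mismatches, predicted further miRNAs with miRDeep2 and deposited values that they name TPM. The deposited values are taken as RPM. Within each sample, the 257 values divided by the smallest one above 0 gave whole numbers (within 0.001), so that smallest value stood for 1 read, with no term for length. Each sample had 76 to 93 miRNAs with 1 to 20 reads. A rule chosen for this report asked for 100 before the values were treated as deposited counts, so no count model was fitted. Such a model does not itself need this number. Reads served only for depth, limits and counting intervals, which cover counting error only. How reads were trimmed, and how a read matching several miRNAs was counted, is not stated in the sources.

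Members were the ptc-miR167 and ptc-miR393 entries. They, the auxin families (ptc-miR160, ptc-miR164 and ptc-miR390) and the other names were chosen with earlier results of these data known: the 3 highest Pearson correlations for each member with a mean of at least 10 RPM, ptc-miR156a, and the most abundant miRNA. Any name beyond these is marked in the text, and ptc-miR482a.2 and ptc-miR482d-3p were chosen after their values were seen. Log2(RPM + 1) of the 216 miRNAs that averaged 1 RPM or more was fitted with limma 3.58.1 (R 4.3.3, trend in the variance, 4 group means, 12 samples, 2-sided P, Benjamini-Hochberg adjustment over all 216). A result was called at an adjusted p under 0.05, and the P of 0.05 used in the study was taken as unadjusted. A fold change on this scale understates that of low miRNAs. Sums and ratios used scipy 1.17.1, pandas 2.3.3 and numpy 2.4.6 under Python 3.11.15, and matplotlib 3.10.9 drew the plots. The limma fit was also run on simulated data with known Bo/Li changes. All simulated miRNAs had the same spread between replicates, so these runs do not stand for the unequal spreads of the members.

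No library was a copy of another (smallest chi-square per degree of freedom of 66 pairs, 42.4). Same-numbered deviations from group means correlated at 0.25, 0.52 and 0.50 between La and Ov, so these libraries may be pairs, on the evidence of the values alone. Differently numbered libraries were not correlated beside them, which limits this evidence. The main fit did not use this pairing, so the Ov/La values above are unpaired. The replicate number entered only as a block in alternative fits. The other 5 pairs of leaf types each had a correlation of 0.1 or less. Alternatives were other pseudocounts, filters, scalings, variance models, the replicate number as a block, fits of only the 6 samples compared, the unadjusted threshold and each sample left out in turn.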

Additional observations from a re-analysis of the deposited data

How the results depend on the processing

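No alternative other than leaving out a library called a member after adjustment. With each library left out in turn, members called ranged from 0 to 1 for Bo/Li (ptc-miR167f-3p without Li1) and stayed at 0 for the other 5 pairs. With the unadjusted threshold, 1 member passed for La/Li. With the replicate block, 0 members were called in any pair, in the fit of all samples or of the 6 samples of a pair, and the smallest adjusted p was 0.18. The Bo/Li log2 fold change of ptc-miR393a-5p, 0.23, turned to -0.025 with median-ratio scaling and ranged from -0.035 to 0.74 with each library left out, and that of ptc-miR167h-5p ranged from -1.35 to 0.50. With each library left out that of ptc-miR167a ranged from 0.11 (without Li2) to 1.35 (without Li1), of ptc-miR167e from -0.82 (without Bo3) to -0.33 (without Bo1), and of ptc-miR393a-3p from -1.62 (without Bo2) to -0.20 (without Bo3). Median-ratio scaling shifted the overall median for Bo/Li from 0.09 to -0.13 (log2). Of the 10 entries of miR160, miR164 and miR390, the Bo/Li count of 3 became 0 with median-ratio scaling, 0 with variance without trend, 0 with only the 6 samples and the replicate block, and 0 to 3 with each library left out. For Bo/La it ranged from 0 to 1 (1 without Ov1). With the unadjusted threshold 2 passed for La/Li and for Bo/La, and 3 for Ov/Li and for Bo/Ov. The causes were not tested. Depth limits ptc-miR167h-5p and both miR393 strands most, at 0 to 21 reads per library.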

Other observations

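Deviations of same-numbered La and Ov libraries from their group means correlated over all tested miRNAs, at r = 0.25, 0.52 and 0.50 for replicates 1, 2 and 3. Differently numbered libraries were not compared in this way. The low and high sets of ptc-miR167f-5p matched for replicates 2 and 3 but not for replicate 1. The level of ptc-miR167f-5p was low in La2 and Ov2 (235 and 423 RPM) and high in La3 and Ov3 (2463 and 3614 RPM). La1 and Ov1 were opposite, at 572 and 3479 RPM, while ptc-miR167a was at 4798 and 1919 RPM. La3 was the only high La library and Ov2 the only low Ov library. No numbering could therefore have matched in more replicates, and most numberings would have matched in as many. The match thus says nothing about a pairing. The sources do not say what same-numbered libraries share.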
